A study of Homo sapiens with 6 samples.

Results

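The 10 genes described here encode the FOS proteins (FOS, FOSB, FOSL1, FOSL2), the JUN proteins (JUN, JUNB, JUND), and the stress- and growth-factor-induced nuclear proteins ATF3, EGR1 and IER2. They were taken by name from 60483 genes listed for each sample, and all 10 were found and passed the filter on low counts, among 14900 genes that did so. RNA came from DLD-1, an established line of human colorectal cancer cells, at passage 16 to 19 in serum-containing RPMI-1640 medium. The cells had been transfected either with a control siRNA (3 libraries) or with siRNA against AHR (3 libraries), which encodes the aryl hydrocarbon receptor, a transcription factor switched on by ligands. Both groups share the line, the medium and a transfection, so an effect of transfection itself is in both. No untransfected cells and no second siRNA were analysed here, and neither the siRNA sequences nor the time from transfection to harvest are known from the sources used here.

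Proteins of the FOS and JUN families carry a basic region that contacts DNA and a leucine zipper through which they pair, and the pairs form the transcription factor AP-1. JUN proteins can pair with each other or with FOS proteins, whereas FOS proteins need a JUN partner, so the set of pairs in a cell depends on which members it makes. Several of these genes are immediate early genes: growth factors and stress switch them on within minutes, without new protein synthesis, largely through ERK and other MAP kinases that act on ELK factors and the serum response factor SRF at their promoters. Their messenger RNAs are mostly short-lived, and AU-rich words in the 3' end, recognised by decay proteins such as the product of ZFP36, are one reason for that. In colorectal tumours AP-1 is known as an output of growth factor and ERK signalling.

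Before the values, the sequence context of the genes that moved most is shown. RefSeq (GRCh38.p14) gave a promoter window for 9 of the 10 genes, 250 bases before the start site and 50 after it. FOSL1, which fell more than JUNB, had no window. Up to 130 bases before the start site are printed for the 2 genes with a window that fell most (EGR1 and JUNB) and the 2 that rose most (FOSB and JUND), 5' to 3' on the strand of the gene. The regions are chr5:138465349-138465478 (plus strand) for EGR1, chr19:12791356-12791485 (plus strand) for JUNB, chr19:45467866-45467994 (plus strand) for FOSB and chr19:18281623-18281752 (minus strand) for JUND. Capitals mark serum response elements (CArG boxes), the half-site TGACG of the cAMP response element or its reverse complement CGTCA, and the TATA box word TATAAA.
EGR1: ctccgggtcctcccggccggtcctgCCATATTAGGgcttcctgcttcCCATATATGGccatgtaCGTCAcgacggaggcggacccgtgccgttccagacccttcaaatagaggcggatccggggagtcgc
JUNB: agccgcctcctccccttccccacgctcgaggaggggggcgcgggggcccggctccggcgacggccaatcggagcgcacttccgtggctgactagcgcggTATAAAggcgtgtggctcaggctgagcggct
FOSB: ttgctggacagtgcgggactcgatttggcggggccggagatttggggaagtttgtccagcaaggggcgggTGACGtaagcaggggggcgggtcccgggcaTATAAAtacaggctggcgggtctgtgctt
JUND: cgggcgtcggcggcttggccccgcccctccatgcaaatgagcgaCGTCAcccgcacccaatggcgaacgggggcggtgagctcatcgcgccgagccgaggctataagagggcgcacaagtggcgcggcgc

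A pair of serum response elements lies in the EGR1 stretch, at positions -105 to -96 and -83 to -74 from the start site, and none of the other 8 genes with a window holds one in it. Over all 35116 RefSeq windows of this length, 1.29% hold such an element on either strand. The half-site TGACG or CGTCA occurs in the windows of 8 of 9 genes (EGR1, FOS, FOSB, FOSL2, IER2, JUN, JUNB and JUND), against 24.6% of all windows. This word was added to the search after the sequences had been read, and it includes the palindrome TGACGTCA, which JUND alone of the 9 genes holds, at -200 to -193 and so outside the printed stretch, against 1.85% of all windows. The AP-1 word TGANTCA, searched on both strands, is in the FOSL2 window and in 7.71% of all windows. GCGTG or its complement CACGC, the core of the element that AHR binds with its partner ARNT, is in the windows of 5 of 9 genes (FOS, FOSB, IER2, JUN and JUNB), against 36.5% of all windows. The counts are of genes and the shares are of windows. All windows include those of genes not tested here and were not matched to the 9 genes for GC content. These are matches of letters in short windows and show no binding.

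The 3' ends were compared in GENCODE 29 (GRCh38), with 1 transcript a gene. The AU-rich word TATTTAT is in the 3' UTR of 7 of the 10 genes, FOS, FOSB, FOSL1, FOSL2, JUN, JUND and ATF3, against 32.5% of 12320 tested coding genes with a 3' UTR. The shorter core ATTTA is in 9 of 10, IER2 being the exception, against 69.0%. Median 3' UTR lengths were alike, at 1136 bases in the 10 genes and 1080 in the tested coding genes. In the FOS family all 4 members hold the longer word. Of them 2 fell, 1 rose and 1 was not called, and the part of the word in these changes was not tested. For these 4 genes, 27 bases around the first copy of the word in the 3' UTR are printed with the word in capitals, from chr14:75282061-75282087, chr19:45474532-45474558, chr11:65892273-65892299 (minus strand) and chr2:28416095-28416121.
FOS: gtttttaattTATTTATtaagatggat
FOSB: attccttagcTATTTATccctttcctg
FOSL1: gggcagctgcTATTTATtttcctaaag
FOSL2: agcatctcacTATTTATtgacaggttg

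The 6 libraries held 11567736 to 15037145 counts. Levels are given as CPM, counts scaled to the size of the library. The first principal component of log2 CPM separated the groups with 78.2% of the variance, and control siRNA replicate 1 stood apart from its group on the second (8.35%). The colon epithelium markers summed to 140323 to 161855 counts a library with control siRNA and to 89122 to 100674 with AHR siRNA. Most of these counts came from KRT8 and KRT18, named after their values were seen. This sum and those below are not scaled to the size of the library, and the AHR siRNA libraries were the smaller ones. With scaling, KRT8 still fell to 61.4% and KRT18 to 62.1% of control (edgeR adjusted p = 2.47e-07 and 3.92e-07). The sums of 6 leukocyte markers were 39 to 60 and 25 to 36, those of 6 fibroblast markers 29 to 45 in both groups, and those of 5 endothelial markers 69 to 90 and 76 to 95. Most of these few counts came from CD14 (21 to 55 a library), COL1A1 (8 to 31), PDGFRB (3 to 25), CLDN5 (47 to 65) and VWF (12 to 30), of which PDGFRB and VWF were called higher and COL1A1 and CD14 lower. PTPRC, which marks leukocytes, had 0 to 2 counts, and the fibroblast genes LUM and DCN and the endothelial gene KDR had 0 in every library. Of 10 colon epithelium markers 9 were tested, 5 were lower and 1 was higher. That is 66.7% called, where 60.1% of all tested genes were called, 30% higher and 30.1% lower. VIL1, CDX1 and LGALS4 were named after their values were seen. VIL1, the higher one, went from 7.47 ± 1.35 to 33.5 ± 1.6 CPM (SD, n = 3 each). CDX1 and LGALS4 had only 0 to 10 and 9 to 21 counts. The part of these marker changes in the results below was not tested. AHR itself stood at 116.7, 144.3 and 131.6 CPM with control siRNA and at 95.84, 87.37 and 94.95 CPM with AHR siRNA. It fell to 70.8% of control (log2 fold change -0.50, SE 0.08, edgeR adjusted p = 1.98e-05), so that the compared cells had a partial loss of the transcript.

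FOSB rose and EGR1, FOSL1, JUNB, FOS, IER2 and ATF3 fell in the AHR siRNA libraries, while JUND and JUN rose by smaller amounts and FOSL2 was not called. FOSB was 6.06-fold higher, and EGR1 fell to 43.1% of control. A gene was called at an adjusted p under 0.05 in edgeR's quasi-likelihood test, with Benjamini-Hochberg adjustment over all 14900 tested genes. By that rule 9 of the 10 were called, 3 higher and 6 lower, where 60.1% of all tested genes were called, 30% higher and 30.1% lower. The groups did not overlap for these 9 genes, which was also so for 63.7% of all tested genes. A count of 9 of 10 is therefore to be read against a transcriptome in which most genes moved. The median log2 fold change of the 10 genes was -0.52, against 0.01 over all tested genes.

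**Figure D1:**
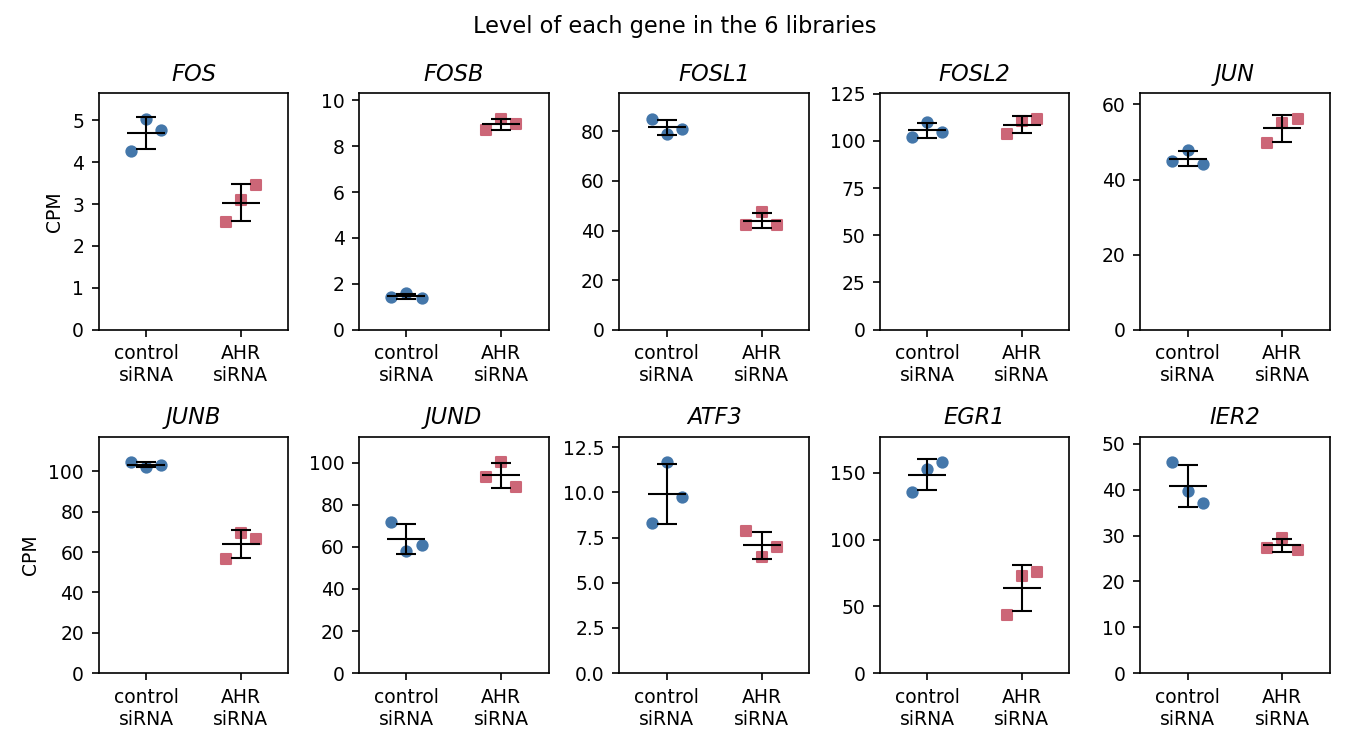
Level in CPM (vertical axis from 0, scaled per gene) of the 10 genes in the 3 control siRNA libraries (circles) and the 3 AHR siRNA libraries (squares), with the mean and SD in black. FOSB is near 1.5 CPM in control and near 9 CPM in AHR siRNA libraries, EGR1 is lowest in AHR siRNA replicate 1, and for FOSL2 the groups overlap.

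Among the FOS genes, FOS (ENSG00000170345.8, chr14:75278774-75282230), the founding immediate early member, was scarce. With control siRNA, replicates 1 to 3 had 57, 73 and 62 counts, or 4.28, 5.04 and 4.77 CPM. With AHR siRNA, replicates 1 to 3 had 31, 42 and 47 counts, or 2.57, 3.09 and 3.45 CPM. All 3 AHR siRNA libraries were below all 3 control libraries. FOS fell to 65.0% of control (log2 fold change -0.62, SE 0.19, edgeR adjusted p = 0.00866).

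FOSB (ENSG00000125740.12, chr19:45467995-45475179), whose product resembles FOS and which also yields a truncated form, moved the opposite way. Its counts were 19, 23 and 18 in the control siRNA libraries, or 1.43, 1.59 and 1.39 CPM. In the AHR siRNA libraries they were 105, 125 and 122, or 8.70, 9.19 and 8.96 CPM. The lowest AHR siRNA library was more than 5 times the highest control library, and the libraries within each group were close together. The log2 fold change was 2.60 (SE 0.18, edgeR adjusted p = 5.79e-10), the largest change among the 10. The gene body overlaps ERCC1 on the other strand in GENCODE 29, with 0 shared exon bases, and ERCC1 itself was at 39.9 ± 6.4 and 43.1 ± 2.5 CPM (SD, n = 3 each; log2 fold change 0.11, edgeR adjusted p = 0.331).

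FOSL1 (ENSG00000175592.7, chr11:65892049-65900573, minus strand) encodes FRA1, a FOS protein that accumulates when ERK stays active. It stood at 85.1, 79.0 and 81.0 CPM in control siRNA and at 42.3, 47.7 and 42.2 CPM in AHR siRNA libraries. The groups were far apart compared with their spread, and FOSL1 fell to 54.0% of control (log2 fold change -0.89, SE 0.07, edgeR adjusted p = 6.52e-09).

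FOSL2 (ENSG00000075426.10, chr2:28392448-28417312) encodes FRA2, the other FRA protein. Its values were 102.3, 109.9 and 104.5 CPM in control siRNA and 103.5, 110.4 and 111.7 CPM in AHR siRNA libraries, and the groups overlapped. The log2 fold change was 0.04 with a 95% interval from -0.10 to 0.18 (SE 0.07, edgeR adjusted p = 0.622). With library totals alone as the scaling, which moves the median gene by 0.15, FOSL2 was called higher (0.19, edgeR adjusted p = 0.0255), and with GC and length trends removed the estimate was -0.073 (edgeR adjusted p = 0.233). In GENCODE 29 an antisense gene and a sense intronic gene overlap it, and whether the counting used strand is unknown from the sources used here.

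The JUN genes also moved apart. JUN (ENSG00000177606.6, chr1:58780788-58784327, minus strand), the strongest activator of the family and the substrate of the kinase JNK, stood at 44.9, 47.8 and 44.1 CPM in control siRNA and at 49.6, 55.0 and 56.2 CPM in AHR siRNA libraries. The groups did not overlap, but the gap between them was small, and the log2 fold change was 0.23 (SE 0.08, edgeR adjusted p = 0.0131). This call was lost without control siRNA replicate 3 (0.20, adjusted p = 0.0763), without AHR siRNA replicate 2 (0.22, adjusted p = 0.0512), without AHR siRNA replicate 3 (0.20, adjusted p = 0.0639) and with GC and length trends removed (0.14, adjusted p = 0.0632), all in edgeR. Over all alternatives the adjusted p of JUN ran from 0.000555 to 0.0763.

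JUNB (ENSG00000171223.5, chr19:12791496-12793315), a weaker activator that can hold JUN in check, stood at 104.5, 102.2 and 103.4 CPM in control siRNA libraries, with an SD of 1.15 CPM. In the AHR siRNA libraries it was at 56.41, 69.35 and 66.46 CPM, all below control. JUNB fell to 62.1% of control (log2 fold change -0.69, SE 0.08, edgeR adjusted p = 3.10e-07). It shares 259 of its 1820 exon bases with HOOK2 on the other strand in GENCODE 29. HOOK2 rose (log2 fold change 0.34, edgeR adjusted p = 0.000433), the opposite direction to JUNB.

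JUND (ENSG00000130522.5, chr19:18279760-18281622, minus strand), the JUN gene that is typically expressed without a stimulus, stood at 71.6, 58.1 and 60.8 CPM in control siRNA and at 93.3, 100.1 and 88.4 CPM in AHR siRNA libraries. Control siRNA replicate 1 was the highest of its group and still below every AHR siRNA library. JUND rose to 148% of control (log2 fold change 0.57, SE 0.08, edgeR adjusted p = 7.78e-06), and the log2 fold change was 0.31 with GC and length trends removed (edgeR adjusted p = 0.000654).

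Of the other 3 factors, EGR1 (ENSG00000120738.7, chr5:138465490-138469315), a zinc finger factor induced through the serum response elements shown above, changed most. Replicates 1 to 3 had 135.3, 152.9 and 157.8 CPM with control siRNA. With AHR siRNA, replicates 1 to 3 had 43.74, 72.44 and 75.35 CPM. All AHR siRNA libraries were at or below 75.35 CPM, and replicate 1 lay well under the others of its group. The log2 fold change was -1.22 (SE 0.13, edgeR adjusted p = 1.67e-07), and -1.01 without AHR siRNA replicate 1 (edgeR adjusted p = 1.15e-07).

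IER2 (ENSG00000160888.6, chr19:13150415-13154908), an immediate early gene of a nuclear protein, stood at 46.0, 39.7 and 37.1 CPM in control siRNA and at 27.25, 29.56 and 26.8 CPM in AHR siRNA libraries. It fell to 68.2% of control (log2 fold change -0.55, SE 0.09, edgeR adjusted p = 3.37e-05), with no overlap between the groups. An antisense gene overlaps it in GENCODE 29.

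ATF3 (ENSG00000162772.15, chr1:212565334-212620777), a stress-induced factor that pairs with JUN proteins and often represses, stood at 8.33, 11.7 and 9.77 CPM in control siRNA and at 7.87, 6.40 and 6.98 CPM in AHR siRNA libraries. The highest AHR siRNA value was just below the lowest control value. The log2 fold change was -0.49 (SE 0.15, edgeR adjusted p = 0.00808). The call was lost in edgeR with library totals alone (-0.35, adjusted p = 0.0632), without control siRNA replicate 2 (-0.36, adjusted p = 0.0599) and without AHR siRNA replicate 2 (-0.42, adjusted p = 0.0503), within a range of 0.000293 to 0.0632 over all alternatives. In bulk RNA, a lower level of any of these genes can come from fewer expressing cells or from less RNA per cell, which cannot be told apart.

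**Figure D2:**
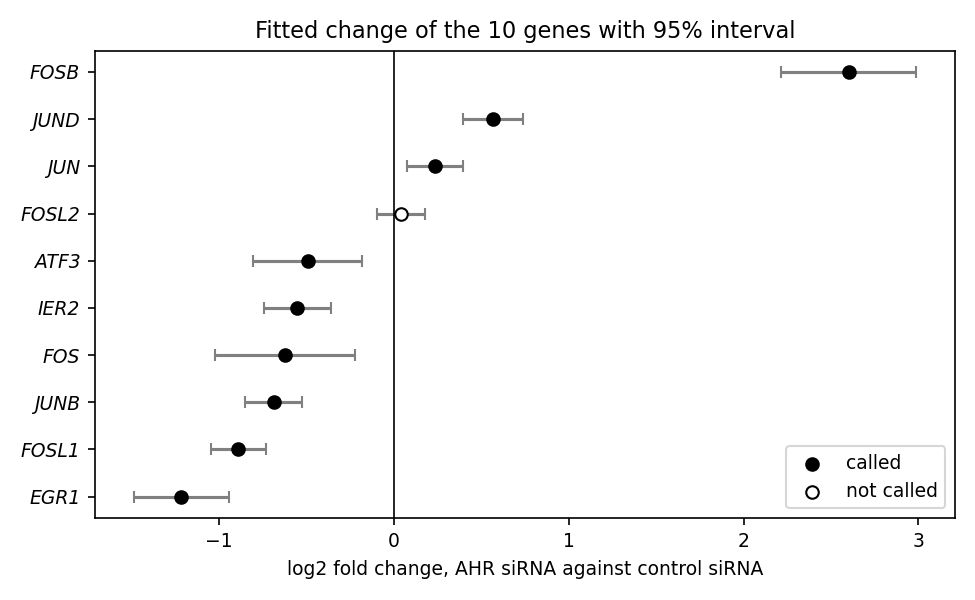
Fitted log2 fold change of AHR siRNA against control siRNA for the 10 genes (horizontal axis), with 95% intervals from the edgeR fit; filled points were called and the open point was not. FOSB stands at 2.60, JUND and JUN at 0.57 and 0.23, the interval of FOSL2 spans 0, and 6 genes lie between -0.49 and -1.22.

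Levels of different genes were compared as CPM per kilobase of GENCODE 29 exon, a scale that uses the summed exons of each gene and not the transcript forms in these cells. In control siRNA libraries the order was JUNB (56.8 ± 0.6, SD, n = 3), EGR1 (47.4 ± 3.8), FOSL1 (43.3 ± 1.6), JUND (34.1 ± 3.8), FOSL2 (14.75 ± 0.55), IER2 (13.3 ± 1.5), JUN (12.9 ± 0.5), ATF3 (2.46 ± 0.41), FOS (1.45 ± 0.12) and FOSB (0.264 ± 0.019). The ranges of EGR1 and FOSL1 overlapped, as did those of FOSL2 and IER2 and those of IER2 and JUN. The 2 genes most often used as readouts of immediate early induction, FOS and EGR1, thus stood far apart on this scale in control cells.

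In AHR siRNA libraries JUND came first on this scale (50.4 ± 3.2), followed by JUNB (35.2 ± 3.7), FOSL1 (23.3 ± 1.7) and EGR1 (20.3 ± 5.6), and FOSB (1.61 ± 0.04) stood above FOS (0.938 ± 0.137). There the range of FOSL1 overlapped that of EGR1, that of EGR1 overlapped that of FOSL2 (15.2 ± 0.6), that of FOSL2 overlapped that of JUN (15.1 ± 1.0), and that of ATF3 (1.75 ± 0.18) overlapped that of FOSB. JUND and JUNB did not overlap in either group, and their order was reversed between the groups.

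The make-up of the families was described as the share of each gene in the summed CPM per kilobase of its family. FOSL1 held 72.4 ± 1.5% of the FOS family in control and 56.8 ± 1.7% in AHR siRNA libraries (SD, n = 3 each). The share of FOSL2 went from 24.7 ± 1.3% to 37.0 ± 1.4%, that of FOSB from 0.442 ± 0.036% to 3.93 ± 0.09%, and that of FOS from 2.43 ± 0.24% to 2.28 ± 0.31%. The larger share of FOSL2 came with a level that was not called changed, since the summed family went from 59.8 ± 1.0 to 41.1 ± 2.1 CPM per kilobase.

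In the JUN family the share of JUNB went from 54.8 ± 1.6% to 34.9 ± 2.1%, that of JUND from 32.8 ± 2.3% to 50.1 ± 2.6% and that of JUN from 12.4 ± 0.9% to 15.0 ± 0.8%. The sum of the 3 was 104 ± 4 in control and 101 ± 6 CPM per kilobase in AHR siRNA libraries, and its libraries overlapped (exact two-sided permutation p = 0.4, n = 3 each). That sum was not recomputed with other scalings or with GC and length trends removed. Over the 7 shares, 6 did not overlap between the groups, each with an exact two-sided permutation p = 0.1, the smallest that 3 against 3 allows, and 0.117 after adjustment over 7. FOS was the other, at an exact p = 0.6. In CPM, the groups did not overlap for 63.7% of all tested genes. Within a family the shares add up to the whole, so a fall of 1 gene raises the others and the 7 are not independent results.

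**Figure D3:**
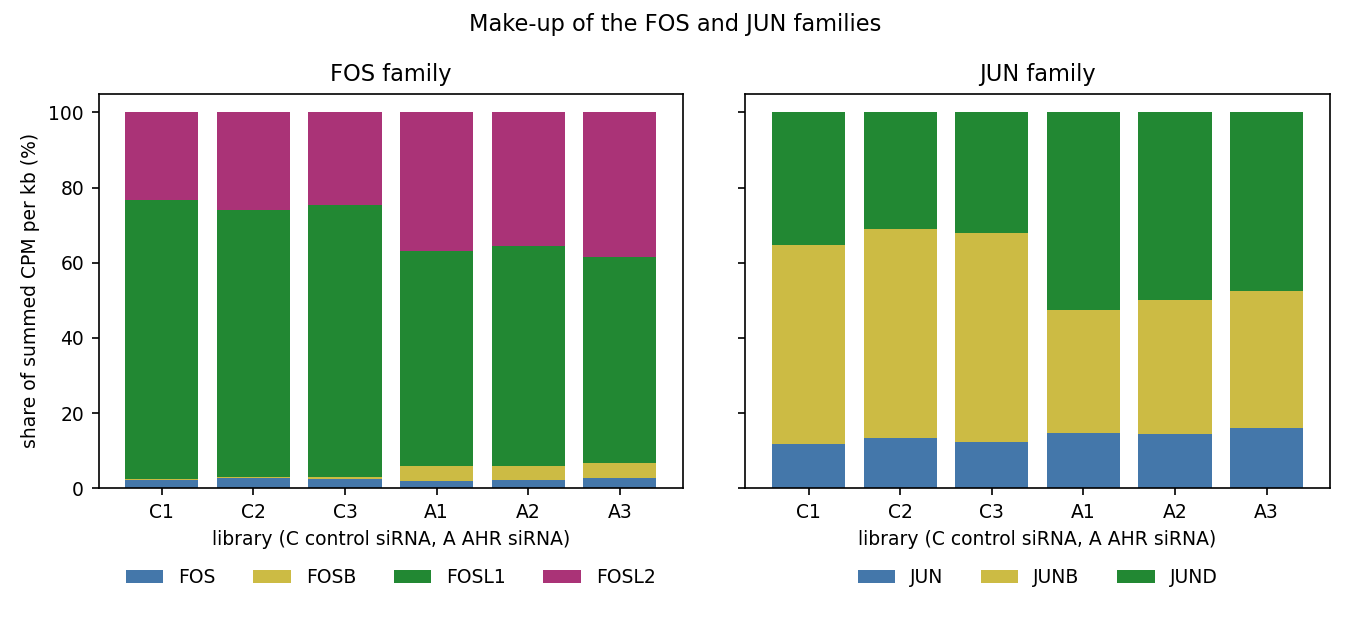
Share of each gene (vertical axis, percent) in the summed CPM per kilobase of the FOS family (left) and the JUN family (right), for control siRNA libraries C1 to C3 and AHR siRNA libraries A1 to A3. FOSL1 shrinks from about 72.4% to 56.8% of its family and JUNB from 54.8% to 34.9% of its own, with JUND the largest JUN share in every AHR siRNA library.

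Of 14 other bZIP genes that can join AP-1 pairs, 10 were tested, 3 were higher, 2 were lower and 5 were not called, with a median log2 fold change of 0.26. The share called, 50%, was below the 60.1% of all tested genes. BATF2 rose from 1.25 ± 0.13 to 3.59 ± 0.26 CPM (SD, n = 3 each; log2 fold change 1.51, edgeR adjusted p = 2.01e-05). ATF2 and ATF7, related factors that pair with JUN, rose to 141% and 145% of control. MAFF, a small MAF protein without an activation domain, fell from 22.9 ± 0.162 to 11.7 ± 0.247 CPM. JDP2, a repressor of AP-1, fell to 74.6% of control with overlapping groups (edgeR adjusted p = 0.0365), and the lower count of this list went from 2 to 1 without control siRNA replicate 1 or 2 or without AHR siRNA replicate 1 or 2. BATF, MAFG and MAFK, named after their values were seen, had log2 fold changes of 0.01, -0.06 and 0.03 and were not called.

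Of 24 other immediate early genes, 22 were tested, 13 were lower, 5 were higher and 4 were not called, with a median log2 fold change of -0.42. That is 81.8% called, where 60.1% of all tested genes were called, 30% higher and 30.1% lower. KLF10 and KLF6, zinc finger factors, fell from 89.8 ± 1.3 to 42.1 ± 1.8 CPM and from 96.9 ± 7.4 to 44.5 ± 1.4 CPM (SD, n = 3 each). IER3, a stress-response gene, fell to 52.4% of control and MCL1, a survival gene of the BCL2 family, to 60.7%. The risers included 2 of the 3 NR4A orphan receptor genes: NR4A3 went from 3.94 ± 0.83 to 17.3 ± 0.8 CPM (log2 fold change 2.12, SE 0.14, edgeR adjusted p = 3.59e-10) and NR4A2 to 171% of control. NR4A1, named after its value was seen, fell to 74.1% of control.

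TRIB1, a pseudokinase gene, rose to 178% of control. EGR3, a relative of EGR1, rose from 0.820 ± 0.550 to 2.34 ± 0.34 CPM on 3 to 37 counts a library, while EGR2, with 1 to 14 counts a library, did not pass the filter. The phosphatase gene DUSP1 and the matricellular gene CCN1, named after their values were seen, had log2 fold changes of 0.15 and -0.02 and were not called. The AU-rich element binding protein gene ZFP36, also named after its value was seen, fell from 67.5 ± 7.1 to 37.4 ± 5.7 CPM. Thus the FOS, JUN, EGR and NR4A families each held members called in opposite directions. Of all tested genes, 30% were called higher and 30.1% lower.

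Genes of the kinases and factors that switch immediate early genes on were listed together with the EGR1 corepressors NAB1 and NAB2. All 22 were tested, 10 were lower, 6 were higher and 6 were not called, and the median log2 fold change was -0.13. The 72.7% called stands beside 60.1% of all tested genes, and NAB1 and NAB2 are 2 of the 10 lower genes. NAB2, a corepressor that binds EGR1 and is itself an EGR1 target, fell from 46.5 ± 0.6 to 17.8 ± 0.3 CPM (SD, n = 3 each; log2 fold change -1.39, SE 0.08, edgeR adjusted p = 5.00e-11). Its relative NAB1 fell to 66.0% of control. MAPK8 and MAPK9, the genes of JNK1 and JNK2, fell to 59.5% and 71.0%, while MAPK14, the gene of p38 alpha, and MAP2K7, a kinase of JNK, rose to 140% and 132%.

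SRF rose to 119% of control (log2 fold change 0.25, edgeR adjusted p = 0.00724) and ELK3, one of its partner genes, to 121%. The other listed partners of SRF were named after their values were seen. MRTFB rose with overlapping groups (log2 fold change 0.24, edgeR adjusted p = 0.033), whereas ELK1, ELK4 and MRTFA, at 0.11, -0.14 and 0.12, were not called. These are transcript levels and say nothing of kinase activity.

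Of 26 genes described as AP-1 targets in other cells, 16 were tested. Of these, 11 were lower, 1 higher and 4 not called, with a median log2 fold change of -0.56. The 75% called stands beside 60.1% of all tested genes, of which 30.1% were lower. LAMB3, a laminin chain gene, fell from 190 ± 4 to 67.9 ± 3.7 CPM (SD, n = 3 each). CXCL8, a chemokine gene, fell to 33.0% of its control level, HMGA2, a chromatin protein gene, to 43.7% and CCND1, the cyclin D1 gene, to 47.8%. The higher count of this list was 0 without control siRNA replicate 1 or 3 or without AHR siRNA replicate 2 or 3, and 2 without control siRNA replicate 2. The collagenase and stromelysin genes MMP1, MMP3 and MMP10, known AP-1 targets named after their values were seen, had 0 counts in all 6 libraries.

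Heat shock genes, listed as a readout of stress, were also lower: 8 of 10 fell and 2 were not called, with a median log2 fold change of -0.38, where 30.1% of all tested genes were lower. HSPA1A and HSPE1, named after their values were seen, were near the threshold (edgeR adjusted p = 0.0469 and 0.0476), and 6 to 9 genes of the list were called lower over the alternatives. HSP90AA1 fell to 49.4% of control, HSPA8 to 75.8%, HSPH1 to 77.5% and HSPA1B, which has a near-identical copy, to 74.1%. The summed counts of this list, not scaled to the size of the library, were 151664 to 166597 in control and 102654 to 107606 in AHR siRNA libraries. The part of this list in the changes of the 10 genes was not tested.

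**Figure D4:**
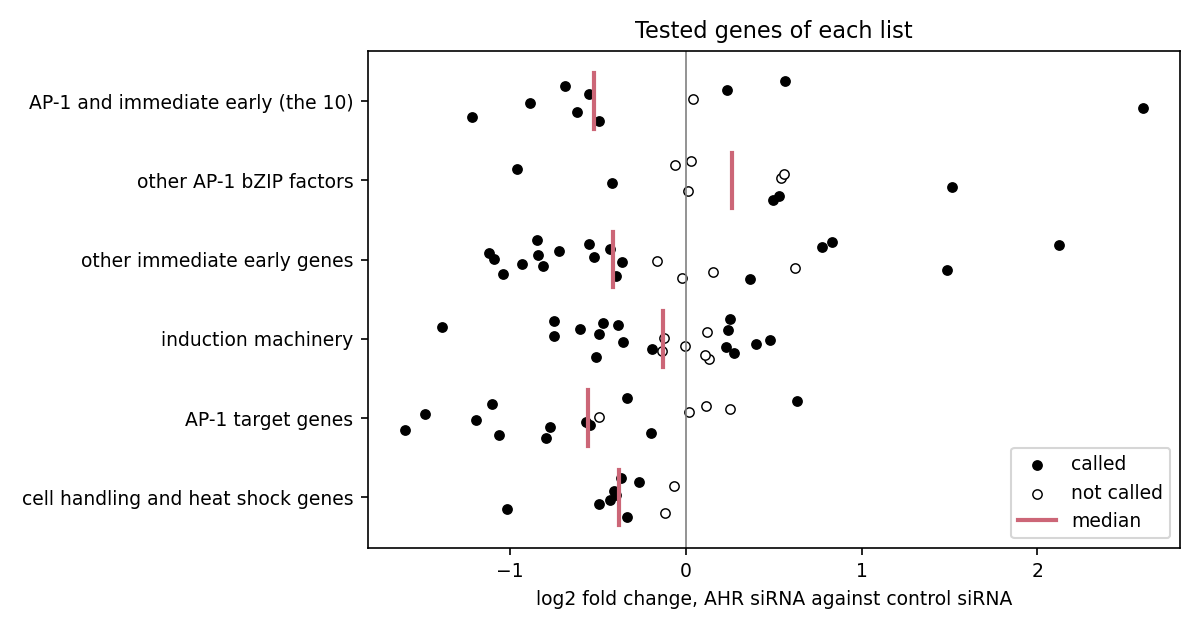
Log2 fold change of AHR siRNA against control siRNA (horizontal axis) for each tested gene of 6 lists, 1 point per gene, filled where called, with the median of each list as a vertical bar. The medians run from -0.56 in AP-1 target genes to 0.26 in other AP-1 bZIP factors, and FOSB and NR4A3 are the points farthest to the right.

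The genes whose profiles over the 6 libraries were nearest to FOSB and EGR1 were sought among 10995 other genes with a symbol and a mean of at least 5 CPM. Likeness was the root mean square difference, over the 6 libraries, of log2 CPM minus the control mean. Nearest to FOSB were PBXIP1 (0.09 log2 units), the serine dehydratase-like gene SDSL (0.12) and the thioredoxin inhibitor gene TXNIP (0.14). Nearest to EGR1 were VGLL3 (0.12), a cofactor gene of TEAD factors, PIWIL4 (0.12) and the ring finger gene RNF223 (0.16). None of these 6 is on the lists of AP-1 or immediate early genes.

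The gene models of the 10 are unusual in ways that bear on counting. In 4 of them, JUN, JUNB, JUND and IER2, the transcript used is a single exon, against 2.003% of 12431 tested coding genes. All 10 transcripts have a GC content above the median of those genes, with medians of 57.2% and 49.5%. With GC and length trends removed, the log2 fold change of each of the 10 genes was lower. That of JUNB went from -0.69 to -0.89, and JUNB stayed called. FOSB went from 2.60 to 2.49 and JUND from 0.57 to 0.31, and both stayed called. JUN went from 0.23 to 0.14 and lost its call. FOSL2 went from 0.04 to -0.07 and was called in neither setting. In the 3' UTRs, EGR1 holds 1 copy of GACTTAA and ATF3 1 copy of CACAACA, and the other 8 genes hold neither. Both words came from an earlier search on these same fold changes and occur in 9.683% and 8.003% of 12320 tested coding genes, and their part in the falls of EGR1 and ATF3 was not tested.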

How the data were processed

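RNA-seq of 6 libraries of DLD-1 cells, 3 per siRNA, was analysed. The authors deposited raw counts per versioned Ensembl gene ID, 1 table a sample. The submitters' processing notes name HTSeq, TopHat and TopHat2 2.0.11 as tools and GRCh37 and hg19 as builds, without roles or order. Strandedness and the treatment of multiply mapped reads are unknown from the sources used here. Of 60483 IDs, 56321 were in the gene name table. Coordinates are those of GENCODE 29 (GRCh38), matched by ID without version, and were not used to recount reads.

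Groups and replicate numbers came from the sample titles. No label says that replicates were separate cultures, so the spread behind every p-value is that of these libraries and may be only technical. Genes were kept by filterByExpr of edgeR 4.0.16 (R 4.3.3), scaled by TMM and tested across all genes with glmQLFit and glmQLFTest, with the group as the only term. CPM use the TMM-adjusted sum of tested genes. SE is the size of the log2 fold change divided by the square root of F. The fit was also run on simulated counts in which few genes changed, as many up as down. Its outcome is not reported here. In these data most genes were called, so that run does not test the scaling used. Replicates of a group differed by more than counting noise in every pair. Alternatives were other scalings and filters, DESeq2 1.42.0, limma-voom (limma 3.58.1), a replicate block, each library left out, an adjusted p under 0.01 and, chosen after seeing the data, loess correction (span 0.4) for GC content and length.

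The 10 genes and the lists were chosen with earlier results of these data known. Besides the 10, up to 4 called genes per direction with the smallest p were named in each list, and others are said to be named after their values were seen. Some genes of the lists are counted there but not reported here by name. Genes of the cell type lists served only as checks. Where several genes share exons or near-identical copies, the split of reads between them is uncertain.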

Additional observations from a re-analysis of the deposited data

How the results depend on the processing

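Over 160 values of the 10 genes under the alternatives, 150 kept their direction and their side of the threshold, 8 lost a call, 1 gained one and 1 turned its sign. At an adjusted p under 0.01 the values are those of the main fit, read at a stricter threshold. FOSL2 was called with library totals alone (0.19) and turned to -0.0727 with GC and length trends removed. JUN (0.23) was not called at an adjusted p under 0.01, or with GC and length trends removed (0.14), and ran from 0.20 to 0.28 with 1 library left out. ATF3 was not called with library totals alone (-0.35) and ran from -0.62 to -0.36 with 1 library left out. FOS, FOSB, FOSL1, JUNB, JUND, EGR1 and IER2 were called in the same direction under every alternative run. With library totals alone 64.7% of all called genes were higher, against 49.97% with TMM. The lower calls among other AP-1 bZIP factors fell from 2 to 1 with upper-quartile factors, library totals alone, the DESeq2 Wald test and an adjusted p under 0.01, and were 1 to 2 with 1 library left out. The higher calls among AP-1 targets went from 1 to 2 with library totals alone, to 0 with the DESeq2 Wald test and to 0 at an adjusted p under 0.01, and were 0 to 2 with 1 library left out. No label pairs same-numbered libraries, and whether they share a batch is unknown from the sources used here. The deviations of same-numbered libraries correlated at 0.193, -0.0405 and 0.154. Control siRNA replicates 1 and 3 each correlated best with the AHR siRNA library of the same number. Control siRNA replicate 2 correlated best with AHR siRNA replicate 3 (0.16). With the replicate block 9597 genes were called, against 8953, with 3 of the 10 genes higher and 6 lower as without it. FOS and FOSB rest on 18 to 125 counts a library, which limits their precision.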

Other observations

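The spread between libraries differed among the 10 genes. In AHR siRNA libraries the coefficient of variation of EGR1 was 27.4%, against a 90th percentile of 13.1% over the 11031 genes that averaged 5 CPM or more, and that of FOSB was 2.77%. In control siRNA libraries JUNB had 1.11% and ATF3 16.9%, against a 90th percentile of 14.6%. The values of FOSB and JUNB lie below the spread that counting noise alone gives on average. With so few libraries they do not show that these genes vary less. AHR siRNA replicate 1 was the lowest of its group for 6 of the 10 genes, against 34.8% of all tested genes.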
